A study of Mus musculus with 18 samples.

Results

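CXC chemokines are small secreted proteins that guide leukocytes. Transcripts of 10 of them were examined, the genes listed as Cxcl1, Cxcl2, Cxcl5, Cxcl9, Cxcl10, Cxcl11, Cxcl12, Cxcl13, Cxcl14 and Cxcl16, out of 36172 genes in the expression table. Their rows were picked out by gene symbol. RNAseq libraries came from brains of Cx3cr1-NuTRAP mice (genotype Cx3cr1-Cre/Ert2+; NuTRAP+), collected 24 h after mice were injected once, intraperitoneally, with lipopolysaccharide (LPS) at 5 mg/kg or with phosphate-buffered saline (PBS). LPS comes from the outer membrane of Gram-negative bacteria and signals through TLR4. Every animal, PBS controls included, carried 1 allele of a tamoxifen-dependent Cre recombinase under control of Cx3cr1 and 1 NuTRAP allele, and had received tamoxifen at about 3 months of age, some weeks before the injection. Recombination puts an EGFP tag on ribosomes, so pulling ribosomes down with an anti-GFP antibody (translating ribosome affinity purification, TRAP) gives a positive fraction, while lysate of the same brain hemisphere kept before the pull-down gives the input.

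Fraction and treatment gave 4 groups. Input PBS, Positive PBS and Input LPS had 4 libraries each and Positive LPS had 5. They came from 4 PBS animals (2 female and 2 male) and 5 LPS animals (4 female and 1 male), 1 animal per library. PBS animals carried the numbers 268, 272, 273 and 506, and LPS animals the numbers 266, 267, 270, 271 and 507. Values below are listed in that order. Input of animal 271 gave just 1252 counts, none of them from these 10 genes, and was left out. The other 17 libraries held 22968939 to 35123345 counts. Levels are normalized counts, meaning the deposited count divided by a size factor for the library. A level of 0 in a library allows up to 3 counts, or 2.27 to 3.92 normalized counts depending on the library, by counting error alone. Cx3cr1 drives Cre in microglia and also in macrophages at the borders of the brain. All 8 microglial markers examined were higher in the positive fraction than in input in both treatments (median log2 fold change 4.26 in PBS and 4.08 in LPS). The same held for all 8 border macrophage markers (4.02 and 3.31). Of 8 endothelial markers, all 8 were higher in the positive fraction in PBS animals (1.46) and 6 in LPS animals (0.72). Of 8 neuronal markers 2 were higher and none lower in the positive fraction, so transcripts of other cells remained in it. Of 8 astrocyte markers 1 was higher and 3 were lower in PBS animals, and 1 was higher and 4 were lower in LPS animals. All 8 oligodendrocyte markers were lower in both treatments. Of 8 choroid plexus markers none was higher, 6 were lower in PBS and 7 in LPS animals. Over all genes tested, 21% were higher and 18.8% lower in PBS animals, and 27.6% and 25.8% in LPS animals. Below, "on tagged ribosomes" means in the positive fraction as a whole, which also held RNA of other cells. A change there need not lie in the tagged cells. Because these are bulk samples, fewer cells of a type and less RNA per cell cannot be told apart in any value below.

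CXC ligands act on G-protein-coupled receptors and are held on the cell surface by glycosaminoglycans. Members with a Glu-Leu-Arg motif (Cxcl1, Cxcl2 and Cxcl5) act on Cxcr2 and draw neutrophils, the interferon-inducible members (Cxcl9, Cxcl10 and Cxcl11) act on Cxcr3 of activated T and NK cells, and a further set is made without infection and places cells in tissues, such as Cxcl12 through Cxcr4 and Cxcl13 through Cxcr5. Transcription of the inflammatory members is classically driven by NF-kB downstream of TLR4 and, for the Cxcr3 ligands, by interferon. Of the 10 genes, 7 lie on mouse chromosome 5 (Mm10 build): Cxcl5, Cxcl1 and Cxcl2 form a cluster on the plus strand from chr5:90759299-90761625 to chr5:90903899-90905938, Cxcl9, Cxcl10 and Cxcl11 another on the minus strand from chr5:92321331-92328079 to chr5:92359545-92363296, and Cxcl13 at chr5:95956939-95961068. The others are Cxcl12 (chr6:117168535-117181368), Cxcl14 (chr13:56288643-56296551) and Cxcl16 (chr11:70454234-70459984). Cxcl10 and Cxcl11 overlap Art3, and Cxcl16 overlaps Zmynd15, each on the opposite strand. The libraries were strand-specific and aligned by direction.

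Promoter sequences are shown because induced and constitutive ligands can be set side by side in them. RefSeq promoter windows on GRCm38.p6, the assembly behind Mm10, were found for 7 of the 10 genes and run from 250 bases before to 50 bases after the annotated start. Windows were searched on both strands for an NF-kB motif (kB, GGG and TTCC with any 3 bases between them), an interferon response motif (ISRE, GAAA repeated after any 2 bases) and a TATA motif (TATAAA). All 5 ligands with a window that rose after LPS (Cxcl1, Cxcl2, Cxcl9, Cxcl10 and Cxcl13) and, for contrast, Cxcl12, which fell there, are printed 5′ to 3′ on their coding strand up to the base before the start. Capitals mark matches to kB, ISRE or TATA.
Cxcl1, plus strand, chr5:90891125-90891244: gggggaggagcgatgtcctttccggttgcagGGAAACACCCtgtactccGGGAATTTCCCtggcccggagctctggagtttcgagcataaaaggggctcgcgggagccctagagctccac
Cxcl2, plus strand, chr5:90903779-90903898: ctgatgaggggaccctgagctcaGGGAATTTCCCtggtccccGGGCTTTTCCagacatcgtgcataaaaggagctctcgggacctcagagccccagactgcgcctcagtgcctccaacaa
Cxcl9, minus strand, chr5:92328080-92328199: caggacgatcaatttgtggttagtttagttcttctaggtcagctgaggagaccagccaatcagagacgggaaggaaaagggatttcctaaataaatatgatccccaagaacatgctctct
Cxcl10, minus strand, chr5:92348890-92349109: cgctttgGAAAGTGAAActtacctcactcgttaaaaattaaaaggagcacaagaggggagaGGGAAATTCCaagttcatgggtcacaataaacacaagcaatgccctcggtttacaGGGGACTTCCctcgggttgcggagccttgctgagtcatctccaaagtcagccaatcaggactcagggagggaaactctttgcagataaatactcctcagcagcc
Cxcl13, plus strand, chr5:95956819-95956938: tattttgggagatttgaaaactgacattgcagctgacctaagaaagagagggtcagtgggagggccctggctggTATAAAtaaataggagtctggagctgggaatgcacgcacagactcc
Cxcl12, plus strand, chr6:117168415-117168534: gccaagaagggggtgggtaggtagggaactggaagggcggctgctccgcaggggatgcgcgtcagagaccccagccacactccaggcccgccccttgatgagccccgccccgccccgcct
The kB letters occurred in 3 of the 7 windows (Cxcl1, Cxcl2 and Cxcl10), against 5.56% of all 32851 promoter windows. The windows of Cxcl9 and Cxcl13, which also rose, held no kB match, nor did those of Cxcl12 and Cxcl14. Cxcl1 held GGGAATTTCC from base -71 to -62 before the start and Cxcl2 the same letters from -97 to -88, each overlapped by a match on the other strand 1 base further on, and each had another kB match (from -89 in Cxcl1 and from -78 in Cxcl2). Cxcl10 held kB matches from -159 and -104 and an ISRE match from -213. ISRE letters also occurred in the Cxcl14 window, from -172, against 3.44% of all windows. TATA letters were found in the Cxcl9 window, from -195 and so outside the bases printed, and in the Cxcl13 window, against 13.6% of all windows. No match describes more than the letters of these windows.

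The first comparison asked which ligands changed 24 h after LPS in the positive fraction, that is, in Positive LPS against Positive PBS. Of the 10 genes, 9 passed the filter on low counts, which asked for over 20 normalized counts in all libraries of a group. By edgeR's quasi-likelihood test (Benjamini-Hochberg adjusted p under 0.05 over all genes tested, and a change of over 25%), 7 were higher after LPS and 2 were lower. Over all 14803 genes tested, 33.9% were called in this comparison, 19% higher and 14.9% lower. For 8 of the 9, 7 upward and 1 downward, the libraries of both groups did not overlap. This held for 30.1% of all genes tested, 17.2% upward and 12.9% downward. The median log2 fold change over the 9 was 3.97, against 0.01 over all genes tested. Passing the filter can rest on the LPS group alone for genes that are low in PBS, so these counts describe the family and carry no test of it.

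**Figure D1:**
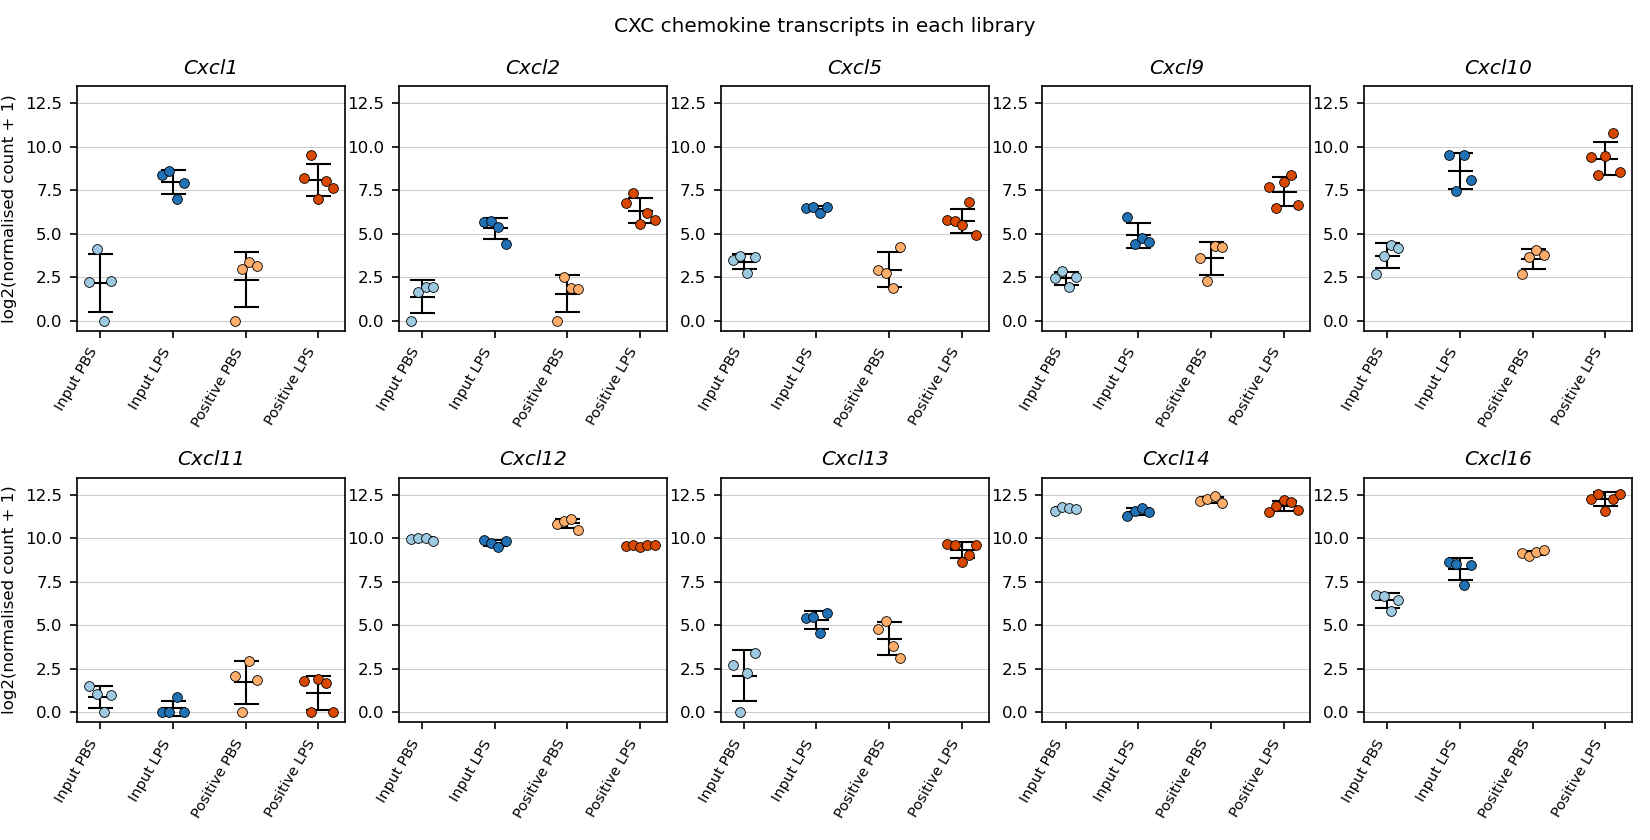
Normalized level of each CXC ligand in the 17 libraries, as log2(normalized count + 1) on the y axis, by group on the x axis. Points are libraries, the long dash is the group mean and bars are ± SD on the log2 scale. Cxcl16 in Positive LPS lay between 3080 and 6089 normalized counts against at most 631.9 in any other group, while Cxcl12 in Positive LPS (728.1 to 798.7) lay below all 4 Positive PBS libraries.

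The same comparison in input (Input LPS against Input PBS) covers RNA of all brain cells. Here 7 of the 9 tested ligands were higher, none was lower, and Cxcl12 and Cxcl14 were not called. Of all genes tested 12.4% were called, 7.16% higher and 5.26% lower. The 7 that rose were the ones that rose in the positive fraction, and their LPS and PBS libraries did not overlap, which held for 24.1% of all genes tested (12.7% upward and 11.5% downward). The median log2 fold change was 3.02 against 0.00 over all genes. Here too, genes low in PBS can pass the filter through LPS libraries alone, so these values carry no test of the family. Whether LPS acted to a different degree in the 2 fractions was tested as an interaction, which was called for 2 of the 9, Cxcl12 and Cxcl16, 1 in each direction, while 6.89% of all genes were called, 5.47% with a higher effect in the positive fraction and 1.43% with a lower one. With animal as a fixed block in edgeR, 1917 genes were called in place of 1020. With limma voom, 1986 were called with animal as a random block and 914 without it. Both blocked fits called Cxcl12 and Cxcl16, whereas voom without the block called Cxcl12 alone and DESeq2 called Cxcl13 besides these 2. For the other 7 a difference between fractions was not shown, and it was not excluded either, since the standard errors of that difference ran from 0.19 for Cxcl14 to 1.15 for Cxcl1.

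**Figure D2:**
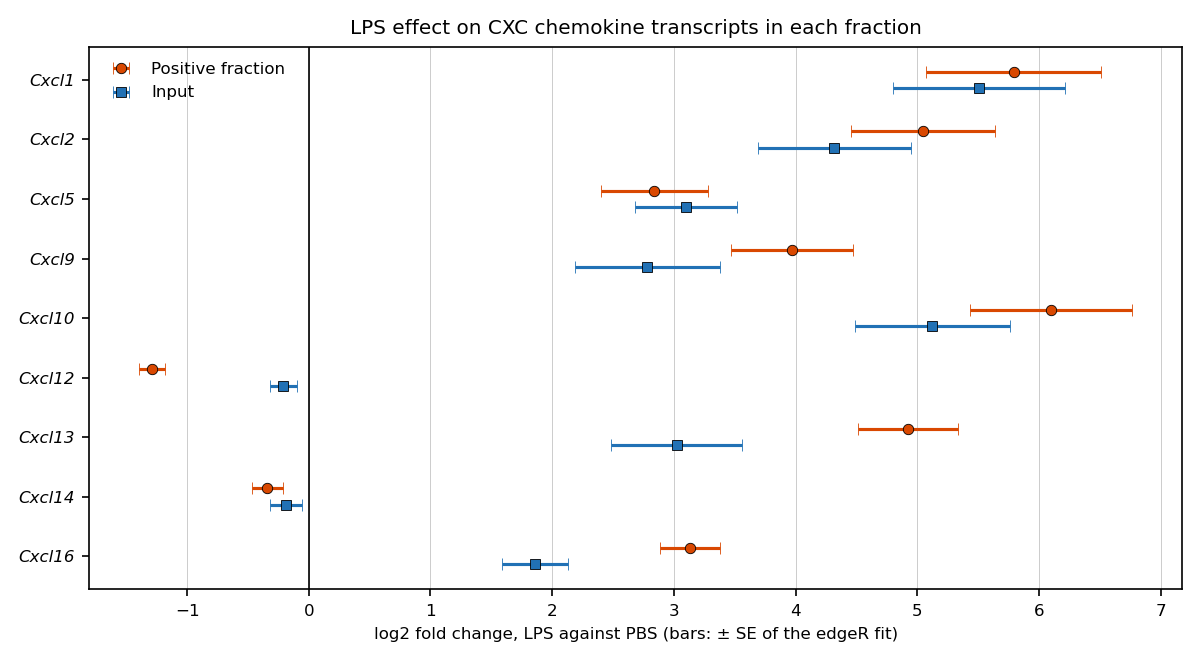
Fitted log2 fold change of LPS against PBS for the 9 tested ligands, in the positive fraction (circles) and in input (squares), with bars for ± SE of the edgeR fit. Cxcl10 (6.10) and Cxcl1 (5.79) lay within their errors of each other in the positive fraction, and Cxcl12 lay at -1.29 in the positive fraction and -0.21 in input.

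Among the neutrophil attractants, Cxcl1 went from near the detection limit to over 100 counts in every LPS library. In input it held 3.64, 16.5, 0 and 3.81 normalized counts in the PBS libraries and 325.9, 388.7, 128.9 and 236.5 in the LPS libraries of animals 266, 267, 270 and 507. Levels in the positive fraction were 0, 6.66, 9.14 and 7.64 in PBS and 289.1, 740.7, 128.0, 259.6 and 200.1 in LPS. Every LPS library was above every PBS library of its fraction, and animal 267 was highest and animal 270 lowest of the LPS animals in both fractions. LPS raised Cxcl1 by log2 5.79 in the positive fraction (SE 0.72, adjusted p = 5.37e-06) and by 5.51 in input (SE 0.71, adjusted p = 3.18e-05). The PBS groups rested on 24 counts in all in input and 20 in the positive fraction. Without the input library of PBS animal 272, which alone held most of the input background, the input value became 6.68. After LPS, the positive fraction did not differ from input beyond the spread (log2 0.26, SE 0.47, adjusted p = 0.649), and the sign turned to -0.30 without the positive library of animal 267.

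Cxcl2, a close relative of Cxcl1, behaved alike at lower levels. It held 0, 2.06, 2.85 and 2.86 normalized counts in Input PBS and 50.7, 51.5, 41.1 and 20.4 in Input LPS. On tagged ribosomes there were 0, 4.76, 2.61 and 2.55 in PBS and 107.8, 161.6, 46.4, 70.7 and 54.3 in LPS. All PBS libraries were within a few counts of 0, and no LPS library came near them. Fold changes on the log2 scale were 5.05 in the positive fraction (SE 0.59, adjusted p = 2.76e-06), and in input 4.32 (SE 0.63, adjusted p = 1.09e-04). Leaving out animal 272 among the Positive PBS libraries gave 5.65 in the positive fraction. Unlike Cxcl1, Cxcl2 was called higher in the positive fraction than in input after LPS (log2 1.11, SE 0.40, adjusted p = 0.0221). This call was lost in 4 of 28 alternatives. They were without the Input LPS library of animal 507 (0.88), without the Positive LPS library of animal 267 (0.77), without animals 506 and 507 (1.01), and with the deposited log2 values (0.93). Cxcl2 shares 6.25% of its 42-base windows, the read length left by the fixed trimming, with Cxcl3, and reads there could belong to either gene. Cxcl3 itself averaged at most 4.09 normalized counts in any group.

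Cxcl5, the third of these ligands and a product of epithelium, endothelium and platelets among other cells, rose in both fractions and was not enriched on tagged ribosomes. Input held 10.0, 12.4, 5.70 and 11.4 normalized counts in PBS and 89.1, 90.1, 73.1 and 89.9 in LPS. Positive libraries held 6.53, 5.71, 2.61 and 17.8 in PBS and 53.9, 52.8, 44.5, 111.6 and 29.2 in LPS. The groups did not overlap within a fraction, and animal 271 was the highest positive library while its input is missing from the comparison. The increase was log2 2.84 among positive libraries (SE 0.44, adjusted p = 5.60e-05) and 3.10 among input libraries (SE 0.42, adjusted p = 5.65e-05). Leaving out animal 506 among the Positive PBS libraries gave 3.49 for the first of these. In LPS animals Cxcl5 was at -0.55 (SE 0.34, adjusted p = 0.161) in positive against input, and within animals the positive level was below input in all 4 with both libraries. The value passed the test in 4 of 28 alternatives. It was -0.94 with animal as a fixed block and -0.92 without the positive library of animal 271. With limma voom it was -0.70, and -0.79 with the random block.

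The neutrophil markers that could be tested moved in the same direction as these 3 ligands. Of 8 neutrophil markers 3 passed the filter, and all 3 were higher after LPS in both fractions. S100a8 stood at log2 4.73 in the positive fraction and 2.01 in input, S100a9 at 1.90 and 1.88, and Ngp at 2.45 and 2.45. Only for S100a8 was a difference between fractions called (2.72, adjusted p = 0.0141). Below the filter, means in input went from 8.45 to 2.67 normalized counts for Mpo and from 2.5 to 0 for Elane. They went from 6.7 to 6.61 for Camp and from 19.3 to 20.7 for Ltf. The summed level of all 8 markers ran from 129.5 to 440.0 normalized counts in Input PBS and 418.7 to 1153 in Input LPS. It ran from 22.9 to 129.6 in Positive PBS and 306.1 to 793.8 in Positive LPS. The defining marker Ly6g was listed at 0 in all 17 libraries. The part of neutrophil markers in the result was not tested.

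Among the interferon-inducible ligands, Cxcl9 rose in both fractions and was higher on tagged ribosomes after LPS. Input held 4.55, 6.19, 2.85 and 4.76 normalized counts in PBS and 61.2, 20.2, 25.4 and 21.9 in LPS. Positive libraries held 10.9, 3.81, 18.3 and 17.8 in PBS and 204.6, 87.0, 245.8, 334.7 and 99.6 in LPS. No LPS library overlapped PBS, and in the positive fraction each of the 5 LPS libraries was above the highest Input LPS library. After LPS the level was log2 3.97 higher on tagged ribosomes (SE 0.50, adjusted p = 6.42e-06) and 2.78 higher in input (SE 0.60, adjusted p = 0.00355), and the difference between fractions of 1.19 (SE 0.85, adjusted p = 0.489) did not pass. Positive against input in LPS animals was 2.59 (SE 0.44, adjusted p = 5.75e-05). In PBS animals it was 1.40 (SE 0.68, adjusted p = 0.0989). That value passed with animal as a fixed block (1.38), with DESeq2 (1.45) or without the Positive PBS library of animal 272 (1.74).

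Cxcl10, the best-known interferon-induced ligand of Cxcr3, rose in both fractions. Input held 5.47, 12.4, 19.0 and 17.1 normalized counts in PBS and 725.2, 174.6, 726.6 and 266.7 in LPS. The positive fraction held 5.45, 11.4, 15.7 and 12.7 in PBS and 670.1, 330.4, 702.1, 1792 and 374.1 in LPS. The LPS libraries spread widely, with animal 271 far above the other positive libraries and animal 267 lowest in both fractions, but all lay well above PBS. LPS raised Cxcl10 in the positive fraction by log2 6.10 (SE 0.67, adjusted p = 1.22e-06), and 5.53 was the lowest value when any 1 library was left out. In input it was 5.12 (SE 0.64, adjusted p = 2.19e-05). Its place relative to Cxcl1 in the positive fraction changed between fits: Cxcl1 had the higher value with sex as a term (6.13 against 5.75), with limma voom, with or without the random block, and without the positive library of animal 271. Cxcl10 was not enriched in the positive fraction in PBS (log2 -0.27) or in LPS animals (0.71, SE 0.45, adjusted p = 0.184).

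Cxcl11 did not pass the filter. It held 1.82, 1.03, 0 and 0.95 normalized counts in Input PBS, 0 in 3 Input LPS libraries and 0.82 in that of animal 270. In the positive fraction it held 3.27, 0, 6.53 and 2.55 in PBS and 2.45, 0, 2.78, 2.21 and 0 in LPS. Nearly all of these lie under the limit that a count of 0 allows, the summed counts of the groups being 4, 1, 10 and 7 in the order given. Exact two-sided permutation tests of the group means gave p = 0.254 for LPS in the positive fraction and p = 0.143 in input (4 such tests, unadjusted). A change of Cxcl11 was not detectable at this depth. Of 8 T and NK cell markers only Cd4 passed the filter, and Trac was listed at 0 in every library. By edgeR, Cd4 was lower after LPS in the positive fraction, at 283.9 normalized counts in PBS and 191.4 in LPS (log2 -0.57, SE 0.14, adjusted p = 0.00362). In input it was not called (-0.10, SE 0.15, adjusted p = 0.711). Below the filter, group means ran from 10.44 to 18.39 normalized counts for Cd3d and from 7.822 to 22.2 for Cd8a. The highest group means were 5.269 for Nkg7, 2.85 for Cd3e, 1.229 for Cd3g and 0.2379 for Ncr1.

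Cxcl16 is made as a membrane-bound ligand of Cxcr6, also acts as a scavenger receptor, and is shed by Adam10. It was enriched on tagged ribosomes in both treatments and rose further after LPS. Input held 104.8, 102.1, 55.1 and 87.6 normalized counts in PBS and 397.6, 367.6, 156.8 and 346.1 in LPS. In positive libraries the levels were 560.8, 501.6, 584.7 and 631.9 in PBS and 4927, 6089, 3080, 4905 and 5999 in LPS. None of the 4 groups overlapped another, with input below the positive fraction and PBS below LPS within each, and animal 270 was the lowest LPS animal in both fractions. LPS raised it by log2 3.13 on tagged ribosomes (SE 0.25, adjusted p = 2.25e-08) and by 1.86 in input (SE 0.27, adjusted p = 1.07e-04). Positive against input was 2.70 (SE 0.27, adjusted p = 2.01e-07) in PBS and 3.98 (SE 0.26, adjusted p = 2.97e-10) in LPS animals. The LPS effect was larger in the positive fraction by 1.28 (SE 0.35, adjusted p = 0.0330). That last call was lost in 12 of 28 alternatives, with values from 1.05 to 1.45.

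Cxcl13, the B-cell attractant that acts on Cxcr5, had, with Cxcl16, the highest fitted enrichment after LPS. Input held 5.47, 0, 3.80 and 9.52 normalized counts in PBS and 41.1, 44.1, 22.2 and 51.4 in LPS. On tagged ribosomes there were 26.1, 36.2, 13.1 and 7.64 in PBS and 809.8, 790.4, 397.9, 514.8 and 780.5 in LPS. The Positive LPS libraries stood apart from all others, whereas Input PBS and Positive PBS overlapped. It rose by log2 4.93 among positive libraries (SE 0.41, adjusted p = 4.80e-08) and by 3.02 among input libraries (SE 0.54, adjusted p = 7.19e-04). Positive against input was 2.14 (SE 0.59, adjusted p = 0.00632) in PBS and 4.05 (SE 0.38, adjusted p = 4.57e-08) in LPS animals. The difference between the LPS effects, 1.90 (SE 0.77, adjusted p = 0.165), did not pass with edgeR and passed with DESeq2 (1.90).

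Markers of the cells that carry the tag moved as follows beside these ligands. In Positive LPS against Positive PBS, 2 of 8 microglial markers were higher (C1qa and C1qb) and 3 lower, among them P2ry12 at log2 -2.47 and Tmem119 at -0.86, with summed levels of 211800 to 251100 normalized counts in PBS and 171300 to 242500 in LPS. Of 8 border macrophage markers 1 was higher and 4 were lower, the largest being Siglec1 at 2.53, Lyve1 at -2.39, Cbr2 at -1.36 and Mrc1 at -1.33. Their summed level was 5108 to 9946 in PBS and 4365 to 7241 in LPS. Their part in the rise of Cxcl13 and Cxcl16 was not tested.

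Cxcl12, which holds cells in tissues through Cxcr4, was the only ligand that fell with groups that did not overlap. Input held 1003, 1045, 1028 and 911.6 normalized counts in PBS and 958.5, 840.0, 721.7 and 927.2 in LPS. The positive fraction held 1836, 2006, 2234 and 1450 in PBS and 759.5, 798.7, 728.1, 771.1 and 796.6 in LPS. Positive PBS was above each other group without overlap, and the 5 Positive LPS libraries lay within the range of Input LPS. Its LPS effect was log2 -1.29 on tagged ribosomes (SE 0.11, adjusted p = 4.72e-08) and -0.21 in input (SE 0.11, adjusted p = 0.239). The difference between these effects was -1.08 (SE 0.16, adjusted p = 3.66e-04). Positive against input was 0.92 (SE 0.11, adjusted p = 3.03e-06) in PBS animals and -0.16 (SE 0.11, adjusted p = 0.204) in LPS animals. Each of these calls was the same in every alternative run.

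Endothelial cells and pericytes are known sources of Cxcl12 in the brain, and their markers were measured alongside. In the positive fraction, 3 of 8 endothelial markers were lower after LPS, namely Tek (log2 -1.86), Flt1 (-1.29) and Kdr (-0.85), and 2 were higher, Emcn (0.75) and Cldn5 (0.51). In input, 3 were higher, Cldn5 (1.34), Emcn (1.13) and Cdh5 (0.78), and 1 was lower, Flt1 (-0.55). The median over the 8 was -0.22 in the positive fraction and 0.61 in input. A difference between fractions was called for none of the 8 markers, with a median of -0.78. Their summed level was 2161 to 3223 normalized counts in Input PBS, 3418 to 4946 in Input LPS, 6003 to 9114 in Positive PBS and 5862 to 9355 in Positive LPS. Of 8 pericyte and fibroblast markers, Rgs5 (-1.43) and Vtn (-1.06) were lower and Dcn (1.68) was higher in the positive fraction. In input, Rgs5 (-0.87) and Vtn (-0.70) were lower and Dcn (1.81) was higher. Summed levels of that list were 4833 to 5473, 4726 to 6187, 2781 to 4781 and 2842 to 3244 in the same group order. Their part in the fall of Cxcl12 was not tested.

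Cxcl14, an ancestral ligand made in many tissues without infection, changed little. It had the highest normalized count of the 10 in every group but Positive LPS, where Cxcl16 averaged 5000 against 3787. Input held 3037, 3622, 3495 and 3316 normalized counts in PBS and 2473, 3041, 3437 and 2874 in LPS. The positive fraction held 4618, 4881, 5522 and 4190 in PBS and 2950, 3770, 4634, 4421 and 3160 in LPS. PBS and LPS overlapped in both fractions. The log2 fold change was -0.34 (SE 0.13, adjusted p = 0.0382) in the positive fraction, a call lost in 11 of 28 alternatives, among them sex as a term (-0.30). Of 8 neuronal markers 4 were lower in the same comparison, Tubb3 (-0.54), Stmn2 (-0.52), Rbfox3 (-0.40) and Eno2 (-0.36), with a median of -0.32 over the 8 and summed levels of 210200 to 243000 normalized counts in Positive PBS and 157200 to 217900 in Positive LPS, and their part in the Cxcl14 value was not tested. None of the 8 was called in input. For Cxcl14 the input value was -0.19 (SE 0.13, adjusted p = 0.390). Positive against input was 0.51 (SE 0.13, adjusted p = 0.00458) in PBS animals and 0.36 (SE 0.13, adjusted p = 0.0223) in LPS animals. The latter was lost in 8 of 29 alternatives, and with animal as a fixed block (0.28) it fell short of the fold required.

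Positive and input were then compared within each treatment. In PBS animals, 4 of 9 tested ligands were higher in the positive fraction than in input (Cxcl12, Cxcl13, Cxcl14 and Cxcl16) and none was lower, against 39.8% of all genes called, 21% higher and 18.8% lower. Of these, 3 had groups that did not overlap, all upward (background 45.7%, 25.2% upward and 20.5% downward). In LPS animals, 5 were higher (Cxcl2, Cxcl9, Cxcl13, Cxcl14 and Cxcl16) and none lower, against 53.4% of all genes called, 27.6% higher and 25.8% lower, and 3 had groups that did not overlap, all upward (background 45.3%, 25.2% upward and 20.1% downward). The shares called either way are near those of all genes, and no ligand was among the lower calls. Each of these comparisons shares its libraries with the LPS comparisons above. Within single animals, Cxcl16 had a mean log2 ratio of positive over input (1 added to each normalized count) of 2.73 ± 0.50 (SD, n = 4) in PBS and 4.02 ± 0.28 (n = 4) in LPS animals, and was above 0 in all 8. Cxcl13 stood at 4.10 ± 0.15 in LPS animals and spread from -0.28 to 5.22 in PBS animals. Cxcl12 was at 0.90 ± 0.19 in PBS and -0.15 ± 0.15 in LPS animals, above 0 in 4 of 4 and 1 of 4. Cxcl1, at 0.19 ± 2.45 in PBS, could not be placed there.

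**Figure D3:**
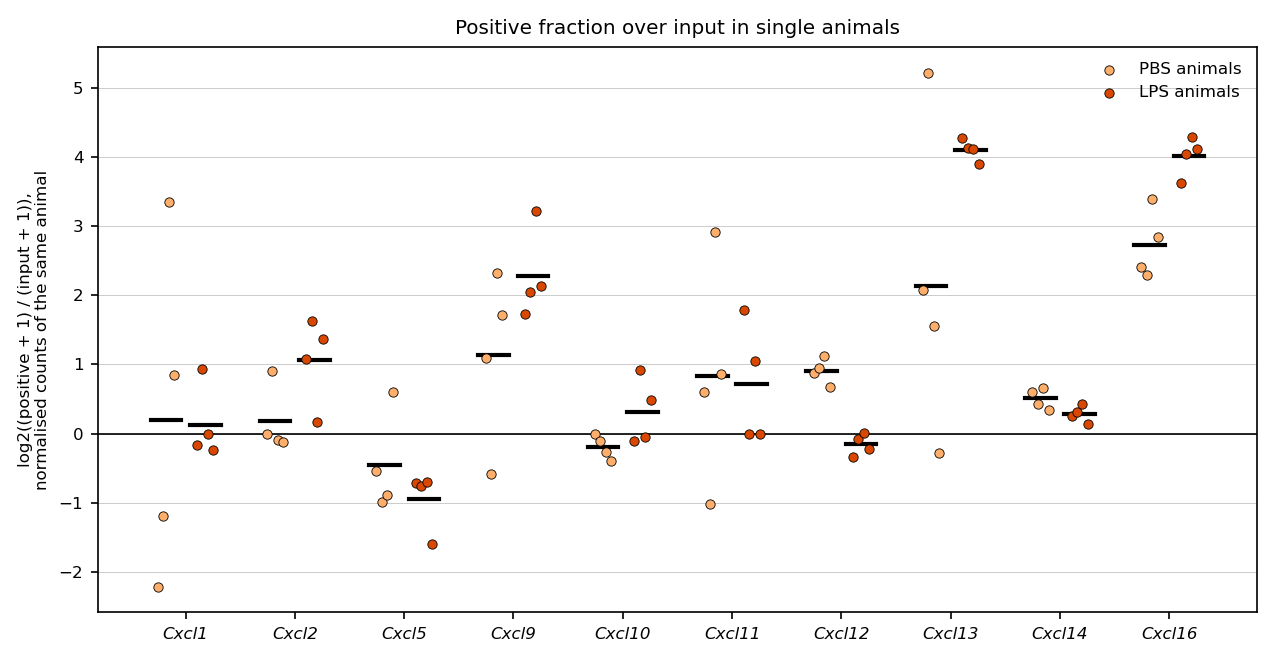
Log2 ratio of positive over input normalized counts (1 added to each) in single animals with both libraries, 4 PBS and 4 LPS animals per gene, with lines at the means. Cxcl16 ratios lay between 2.29 and 3.39 under PBS and between 3.63 and 4.29 under LPS, and Cxcl12 ratios between 0.67 and 1.12 and between -0.34 and 0.01.

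Levels were compared between genes per kilobase of exon. Scaled this way, the 10 ligands summed to 2015 ± 142 normalized counts per kilobase (mean ± SD) in the 4 Input PBS libraries and 3084 ± 339 in the 4 Positive PBS libraries. After LPS the sum was 2294 ± 148 in input (n = 4) and 5050 ± 550 on tagged ribosomes (n = 5). Cxcl14 made up 91.4% ± 0.70 of that sum in Input PBS and 85.2% ± 0.54 in Positive PBS, followed by Cxcl12 with 6.07% ± 0.45 and 7.42% ± 0.60 and Cxcl16 with 1.45% ± 0.42 and 6.19% ± 1.09. The other 7 genes each averaged below 1% in both PBS groups. In Positive LPS the make-up was different: Cxcl14 held 41.3% ± 8.92, Cxcl16 32.7% ± 7.22, Cxcl13 11.4% ± 3.49, Cxcl10 6.66% ± 4.45, Cxcl1 3.32% ± 2.23 and Cxcl12 1.88% ± 0.17. The ranges of Cxcl14 (34.8% to 56.4%) and Cxcl16 (22.7% to 41.0%) overlapped there, as did those of Cxcl13 (7.69% to 15.2%) and Cxcl10 (2.65% to 13.9%). In Input LPS, Cxcl14 still held 70.4% ± 6.52, followed by Cxcl10 (9.06% ± 5.45), Cxcl1 (6.36% ± 2.74), Cxcl16 (4.65% ± 1.74) and Cxcl12 (4.64% ± 0.82), whose ranges overlapped.

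**Figure D4:**
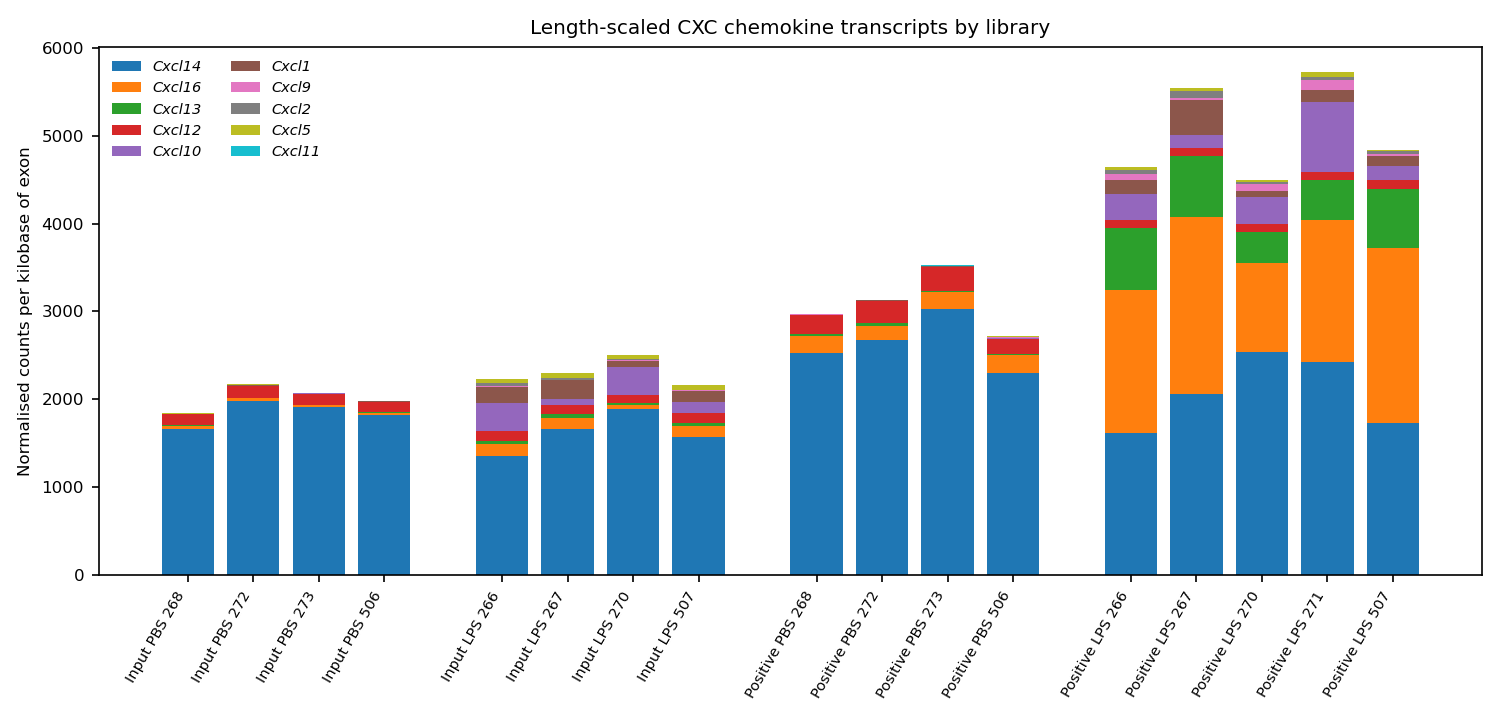
Normalized counts per kilobase of exon of the 10 ligands stacked for each of the 17 libraries, grouped by fraction and treatment. Sums ran from 1836 to 2168 in Input PBS, 2156 to 2500 in Input LPS, 2714 to 3523 in Positive PBS and 4499 to 5725 in Positive LPS, where Cxcl16 and Cxcl13 add most of the rise.

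LPS animals did not rank alike for all induced ligands. In the positive fraction, animal 267 held the highest Cxcl1 (740.7), Cxcl2 (161.6) and Cxcl16 (6089) and the lowest Cxcl9 (87.0) and Cxcl10 (330.4). Animal 271 held the highest Cxcl5, Cxcl9 and Cxcl10. Animal 270 held the lowest Cxcl1, Cxcl2, Cxcl12, Cxcl13 and Cxcl16, but its Cxcl9 (245.8) and Cxcl10 (702.1) were second only to animal 271. Among the 4 LPS animals with both libraries, Cxcl1 rose in the order 270, 507, 266, 267 in both fractions, and Cxcl10 in the order 267, 507, 266, 270 in both. Animal 267 was the only male given LPS, so sex and this animal cannot be told apart. As a description over the 17 libraries, the genes with the pattern most like Cxcl1 by Pearson's r of log2 levels were Csf3 (0.97), Serpina3n (0.95) and Saa1 (0.94). For Cxcl10 they were Ifit3 (0.98), Gbp6 (0.97) and Xaf1 (0.96), and for Cxcl16 Cd101, Tagln2 and Pyhin1 (all 0.99 or more). The libraries fall into 4 groups and those values mostly follow the group means. With group means removed, r was 0.77, 0.75 and 0.52 for the Cxcl1 set, 0.87, 0.66 and 0.72 for the Cxcl10 set and 0.89, 0.77 and 0.75 for the Cxcl16 set.

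Receptors of these ligands were examined as well. Of 8 CXC and atypical receptors in the table, 4 passed the filter, and none of these 4 was called for LPS in the positive fraction. Cxcr2, the receptor of the neutrophil attractants, averaged 383.6 normalized counts in Input PBS, 337.1 in Input LPS, 140.2 in Positive PBS and 142.5 in Positive LPS, and its log2 fold changes after LPS were 0.02 (SE 0.18) in the positive fraction and -0.19 (SE 0.18) in input. Cxcr4 (0.16, SE 0.37) and Cxcr7 (0.05, SE 0.19), the signaling and the scavenging receptor of Cxcl12, were not called in the positive fraction either. Darc, the atypical receptor of red cells and venules now named Ackr1, was called higher in input (0.40, SE 0.11, adjusted p = 0.0157), against 0.22 on tagged ribosomes (SE 0.10, adjusted p = 0.0915), with no difference shown between fractions (adjusted p = 0.550). The others were below the filter: Cxcr3 averaged 10.6 normalized counts in Positive PBS and 3.80 in Positive LPS, Cxcr5 16.7 to 23.4 over the groups, Cxcr6 at most 2.42 and Cxcr1 at most 0.54.

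Of 5 further CXC ligands, only Pf4, the platelet factor that border macrophages also express, passed the filter. It was lower after LPS in the positive fraction, at 488.9 normalized counts in PBS and 266.5 in LPS (log2 -0.87, SE 0.28, adjusted p = 0.0173), and not called in input (-0.13, SE 0.39, adjusted p = 0.868). Cxcl15 was listed at 0 in every library.

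Genes that act on the ligands after transcription moved in part. Of 10 genes for shedding, cleavage, retention and mRNA decay, 5 were higher and 2 lower in the positive fraction (19% and 14.9% of all genes tested). In input 5 were higher and 1 was lower (7.16% and 5.26% of all genes tested). In the positive fraction these were led by Mmp8, a neutrophil collagenase that cleaves CXC ligands (log2 3.23, SE 0.71, adjusted p = 0.00149), Sdc4, a syndecan that binds chemokines at the cell surface (1.57, SE 0.17, adjusted p = 9.80e-07), Zfp36, which destabilizes chemokine mRNA (1.10, SE 0.19, adjusted p = 1.55e-04), and on the lower side Sdc1 (-1.08, SE 0.25, adjusted p = 0.00202). The LPS effect differed between fractions for 3 of the 10, against 6.89% of all genes tested. It was larger in the positive fraction for Sdc4 (difference 0.92, SE 0.24, adjusted p = 0.0220) and for the sheddase Adam17 (0.80, SE 0.19, adjusted p = 0.0127). It was smaller there for Mmp9 (-1.70, SE 0.30, adjusted p = 0.00177), which rose in input (1.37, SE 0.22, adjusted p = 2.74e-04) and stood at -0.33 in the positive fraction (adjusted p = 0.200). Adam10, the constitutive sheddase of Cxcl16, went from 3522 to 4212 normalized counts in the positive fraction, under the fold change required.

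Genes of the pathways that drive these ligands, regulators and inhibitors alike, were measured as well. All 8 NF-kB genes were higher in the positive fraction (median log2 fold change 1.53), against 19% of all genes tested. They were led by Nfkbiz (3.90), Tnfaip3 (3.22), Nfkb2 (2.07) and Nfkbia (1.66). Input showed 6 of the 8 higher (median 0.66), against 7.16% of all genes tested. The LPS effect was larger in the positive fraction for 4 of the 8 NF-kB genes, Nfkbiz, Tnfaip3, Nfkbia and Relb, against 5.47% of all genes tested. Among interferon pathway genes, the transcription factors Irf7 (2.53), Irf9 (0.91) and Irf1 (0.66) were higher in the positive fraction, and in input Irf7 stood at 3.01, Irf9 at 1.10 and Irf1 at 1.03, each called. The difference between fractions was called for the interferon-gamma receptor subunit Ifngr2 (0.50) and for none of these 3 factors. Ifng averaged at most 1.21 and Ifnb1 at most 0.65 normalized counts in any group, below what these libraries can resolve at 24 h.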

How the data were processed

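Libraries from polyA RNA were strand-specific and paired-end. The authors trimmed reads, aligned them to Mm10 in Strand NGS and deposited estimated counts per gene, of which 81.8% of nonzero values were not whole, together with log2 values normalized by DESeq over all 18 libraries, which include the nearly empty one. The deposited counts were rounded to whole numbers. Size factors were medians of ratios over 15803 genes (0.766 to 1.32). A gene was tested (14803 were) if all libraries of any group held over 20 normalized counts of it, with edgeR 4.0.16 (glmQLFit, glmQLFTest) in R 4.3.3, with 1 mean per group over 17 libraries and adjustment over all genes tested. The fit was tested on simulated counts. Unless another tool is named, p-values are from edgeR. In the study itself, the factors were tested by analysis of variance. Alternatives were DESeq2 1.42.0, limma voom (limma 3.58.1), TMM scaling, other filters, a sex term, animal as a replicate block (fixed in edgeR, random in limma voom), leaving out libraries, all 18 libraries, and the deposited log2 values. Input and positive libraries of an animal pair by animal number, and their deviations from group means correlated at 0.163 to 0.519 in all 8 pairs. Means are given ± SD, and replicates are separate animals. Named genes were the 10 ligands, all CXC receptors in the table and, of the other CXC ligands and the pathway lists, the 4 called genes with the largest change per list and LPS effect, except that 1 gene is not reported here. Further pathway genes and the cell type markers named were chosen after their values were seen. The members and lists were chosen with earlier results of these data known.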

Additional observations from a re-analysis of the deposited data

Results flagged for a closer look

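Within-group spread was checked for a single library far from the rest, by the gap to its nearest neighbor relative to the range, in 40 groups of 4 or 5 libraries. About 1 in 20 such groups would be picked by chance if values were normally distributed. Normalized counts need not be, and a single count among values of 0 is always picked, so that rate may not apply. The rule picked 5 groups. They were Cxcl1 in the positive library of LPS animal 267 (740.7 normalized counts, others 128.0 to 289.1), Cxcl10 in the positive library of LPS animal 271 (1792, others 330.4 to 702.1), Cxcl9 in the input library of LPS animal 266 (61.2, others 20.2 to 25.4), Cxcl5 in the input library of LPS animal 270 (73.1, others 89.1 to 90.1) and Cxcl11 in that same library (0.82, all others 0, which is 1 count). Leaving out the library left the LPS effect called for Cxcl1, Cxcl5, Cxcl9 and Cxcl10.

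The LPS effect differed between the positive fraction and input, by the interaction test, for Cxcl12 (-1.08 on the log2 scale) and for Cxcl16 (1.28).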

How the results depend on the processing

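Over 45 values of single ligands, 1203 of 1262 values under an alternative kept direction and side of the threshold, 35 lost the call, 8 gained it and 16 changed sign. The cause was not tested for any. All sign changes were in values that were not called. For Cxcl1, positive against input in PBS (-0.02) became 0.29 with limma voom, 0.29 with the random replicate block in voom, 0.14 with the deposited log2 values, 1.16 without Input PBS 272 and 0.41 without Positive PBS 268, and in LPS animals 0.26 became -0.30 without Positive LPS 267. Its difference between fractions (0.28) became -0.18, -0.17 and -0.14 with voom, the random block and the deposited values, -0.89 without Input PBS 272, -0.14 without Positive PBS 268 and -0.27 without Positive LPS 267. With 1 library left out at a time, these values ran from -0.44 to 1.16, from -0.30 to 0.49 and from -0.89 to 0.70. Cxcl2 in PBS (0.38) became -0.03 without Input PBS 268 and -0.22 without Positive PBS 272 (range -0.22 to 0.80), and the Cxcl5 difference (-0.26) became 0.38 without Positive PBS 506 and 0.50 without animals 506 and 507 (leave-one-out range -0.63 to 0.38).

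Ligands called for positive against input in LPS animals numbered 5, 3 with the deposited values and 3 to 5 when 1 library was left out. Ligands called for the difference between fractions numbered 2, 3 with DESeq2 (Cxcl13 added), 1 with voom, without animals 506 and 507, or with the deposited values, and 1 to 2 when 1 library was left out, Cxcl12 being kept each time. Ligands below the filter numbered 1, 0 without a filter, 2 at 50 normalized counts (Cxcl2 and Cxcl11) and 2 with all 18 libraries (Cxcl5 and Cxcl11).

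The fixed replicate block, set against edgeR without it, changed 3 calls and no other: Cxcl9 in PBS passed (1.38), Cxcl5 in LPS passed (-0.94) and Cxcl14 in LPS was lost (0.28). Set against voom without it, the random block, a voom fit, lost Cxcl14 in LPS (0.32, 0.35 without), while Cxcl5 in LPS passed either way (-0.79 and -0.70) and the Cxcl16 difference, lost with voom (1.30), passed. Calls over all genes for the difference between fractions went from 1020 to 1917 with the fixed block, and with voom from 914 to 1986 with the random one. Without animals 506 and 507 edgeR made 323, and calls in input fell from 1838 to 1080. Deposited values moved the share of higher calls, positive against input, from 52.8% to 37.0% in PBS animals (37.5% with all 18 libraries) and from 51.7% to 41.1% in LPS animals, and shifted the median of all genes to -0.13 and -0.14. Low PBS counts limit the fold changes of Cxcl1, Cxcl2, Cxcl5, Cxcl9, Cxcl10 and Cxcl13. Their summed counts per PBS group ran from 8 (Cxcl2 in input) to 78 (Cxcl13 in the positive fraction).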
